A study of Arabidopsis thaliana with 40 samples.

Results

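The response of oastlB plants to high light was set against that of wild type (WT) plants, as the difference of both responses for every probe set on the array. This uses 16 of the 40 arrays of the series, 4 each of oastlB in high light (HL), oastlB in normal light (NL), WT in HL and WT in NL. The material was Arabidopsis thaliana shoots according to the labels, and leaves according to the design text. All plants were 4 weeks old and soil-grown, with a light period of 8 h and a night of 16 h. HL meant 6 h at 800 µmol quanta m-2 s-1, and NL the growth light of 80 µmol quanta m-2 s-1. Total RNA of 4 biological replicates per group was measured, 1 array each. The labels used here do not say which allele oastlB carries, whether plants were pooled, or at which hour each group was harvested. The other mutant lines of the series, cyp20-3, 2cysprx and serat2;1, had the same light treatments and entered the same fit.

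Plants make cysteine from O-acetylserine and sulfide with O-acetylserine(thiol)lyase (OAS-TL), and OAS-TL B, encoded by OASB, is the plastid form of this enzyme. Serine acetyltransferase supplies the O-acetylserine and binds OAS-TL in the cysteine synthase complex. Cysteine is the precursor of glutathione, the main soluble thiol that serves peroxide removal, a process on which illuminated chloroplasts depend. Abscisic acid, clock components, anthocyanins and chlorophyll synthesis are further known parts of the leaf's reaction to strong light.

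Values are log2 intensities, and a difference of 1 on that scale is a 2-fold change. A light response is HL minus NL within a genotype, and the difference of responses is the oastlB response minus the WT response, so it is positive where the response was higher in oastlB. Differences carry the standard error (SE) of the limma fit. A gene was called where its adjusted p (limma, two-sided, Benjamini-Hochberg over 27826 probe sets) was under 0.05.

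OASB (AT2G43750) read 4.34, 4.67, 4.57 and 3.44 in oastlB HL and 4.79, 4.64, 4.61 and 4.69 in oastlB NL. In WT it read 9.13, 9.15, 9.03 and 9.01 in HL and 9.28, 9.23, 9.05 and 9.22 in NL. All oastlB arrays thus lay far below all WT arrays, in both lights, as the label requires. Its difference of responses was -0.32 ± 0.19 (adjusted p = 0.451). Levels of different probe sets cannot be ranked against each other, so the tissue markers are given as values: the 5 leaf markers averaged 12.25 to 12.54 on the 16 arrays, the 8 root markers 3.08 to 3.50, with group means of SCR at 6.56 to 6.78, and the 8 floral markers 2.14 to 2.72. Pearson's r between the 16 arrays across genes was 0.973 to 0.993, and no 2 arrays were identical. The arrays with the lowest weights in their groups were oastlB HL replicate 4 (0.541), oastlB NL replicate 3 (0.681) and WT NL replicate 1 (0.599).

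The light response itself was called for 4495 genes in oastlB (16.2%) and 5519 in WT (19.8%). The difference of responses was called for 779 genes, 2.8% of those tested. It was higher in oastlB for 324 (1.16%) and lower for 455 (1.64%), and at least 2-fold for 96. Among the 324 genes, the median light response was 0.31 in oastlB and -0.39 in WT, and in 199 the estimates had opposite signs. Among the 455 genes, the medians were -0.22 in oastlB and 0.44 in WT, and 313 had opposite signs. The gap between oastlB and WT was larger in NL than in HL for 553 of the 779 genes, with a median size of 0.25 in HL and 0.39 in NL. Over all genes these sizes were 0.13 and 0.14. These medians describe genes that were selected on the difference itself. As these are bulk samples, fewer cells of a type and less RNA per cell cannot be told apart.

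The count of calls moved with the arrays used. With only the 16 arrays of the 4 groups in the fit it was 140. Leaving out 1 array gave 414 to 958 calls. The lower counts came without oastlB HL replicate 4 (440), oastlB NL replicate 2 (497) or 3 (448), WT HL replicate 1 (497), 2 (515) or 4 (414), or WT NL replicate 1 (434) or 4 (502). In none of these fits did a call change its sign. The genes nearest the threshold were FRL2 (0.67, adjusted p = 0.0497) and CYP81H1 (0.45, 0.0499) inside it, and NRPA2 (-0.49, 0.0501) and RABH1e (-1.14, 0.0501) outside it.

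**Figure D1:**
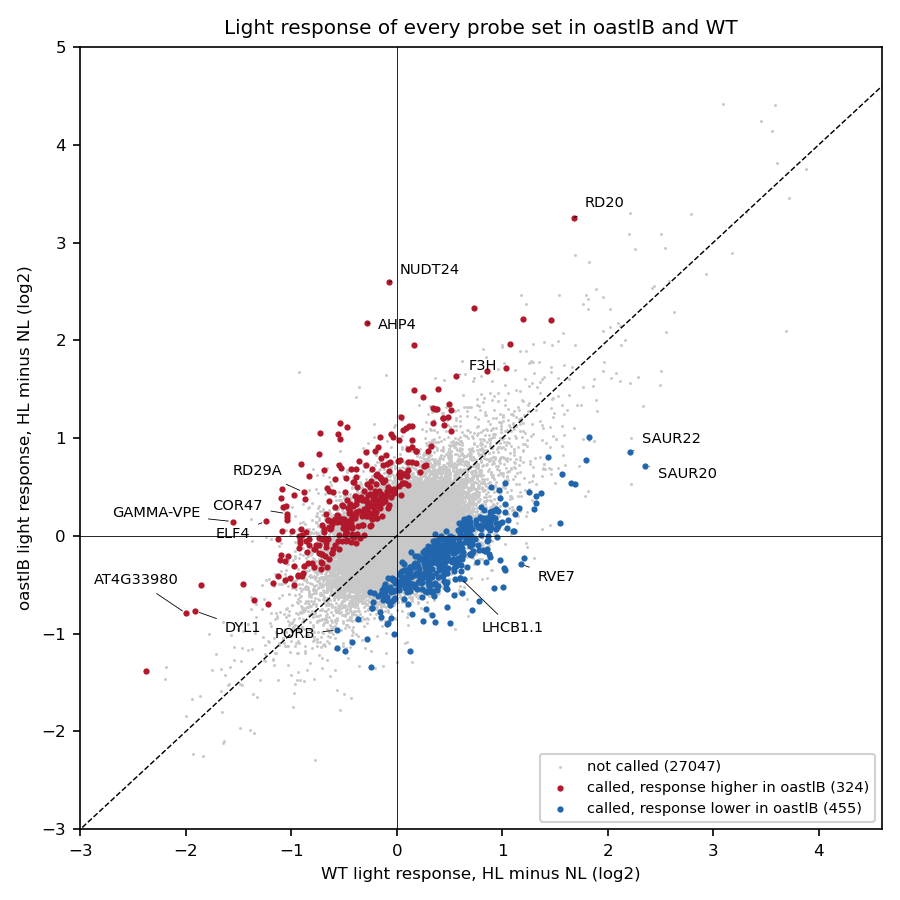
Light response (HL minus NL, log2) of each of the 27826 probe sets in oastlB (y axis) against WT (x axis), with the 324 genes called higher in red, the 455 called lower in blue and equality as the dashed line. Most red points lie above 0 in oastlB and below 0 in WT, and most blue points the other way round, while NUDT24 and AHP4 lie far above the dashed line, with WT responses close to 0.

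The largest positive differences were those of NUDT24 (AT5G19470), a Nudix hydrolase homologue, and AHP4 (AT3G16360), a histidine phosphotransfer protein of the cytokinin signalling family. NUDT24 read 6.52, 5.91, 7.37 and 8.13 in oastlB HL and 4.37, 4.78, 4.63 and 3.76 in oastlB NL. In WT its levels were 4.49, 4.35, 4.43 and 3.58 in HL and 5.28, 3.90, 4.02 and 3.94 in NL. Only in oastlB HL was it high, and no array of the other 3 groups reached the lowest value there. The difference was 2.67 ± 0.54 (adjusted p = 0.00479, and 0.0534 with only the 16 arrays). AHP4 read 5.43, 6.66, 5.82 and 6.86 in oastlB HL, against 4.18, 4.11, 3.75 and 4.02 in oastlB NL. WT stood at 4.92, 4.82, 4.72 and 3.86 in HL and 5.15, 4.32, 4.75 and 5.23 in NL. The oastlB arrays of both lights did not overlap, whereas those of WT did. Its difference was 2.46 ± 0.40 (adjusted p = 0.00081), and AHP4 kept its call under every alternative setting.

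GAMMA-VPE (AT4G32940) encodes a vacuolar processing enzyme, a protease that matures other vacuolar proteins. It read 9.59, 8.23, 9.25 and 9.97 in oastlB HL and 9.19, 9.0, 8.95 and 9.32 in oastlB NL, so these groups overlapped. In WT it read 8.18, 8.11, 8.25 and 8.23 in HL, against 9.70, 9.61, 9.71 and 9.98 in NL. The transcript fell in WT (-1.56 ± 0.20, adjusted p = 3.23e-07), with an oastlB response of 0.15 ± 0.20 (adjusted p = 0.724). The difference of responses was 1.70 ± 0.28 (adjusted p = 0.000836). Of the loci without a symbol in the reference table, AT3G57680 (1.60 ± 0.29, adjusted p = 0.00222) and AT2G24870 (1.64 ± 0.38, adjusted p = 0.0153) kept their calls in the 23 planned settings that tested them, without the one restricted to brighter genes. AT2G24870 reached an adjusted p of 0.0695 when both WT NL replicate 1 and oastlB HL replicate 4 were left out. AT1G64360, at 1.79 ± 0.36, lost its call only with the 16 arrays (adjusted p = 0.0624).

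The most negative differences included the auxin-inducible growth genes SAUR20 (-1.63 ± 0.45, adjusted p = 0.0424) and SAUR22 (-1.35 ± 0.37, adjusted p = 0.0378). Neither response in oastlB was called apart from that of another mutant (limma, adjusted p of 0.247 to 0.787). SAUR22 read 2.31, 2.26, 2.23 and 1.74 in oastlB HL, against 0.92, 1.47, 1.16 and 1.56 in oastlB NL. In WT it read 3.90, 4.02, 3.42 and 3.78 in HL, against 1.70, 1.97, 1.38 and 1.23 in NL. It rose in both genotypes, less in oastlB, and its HL levels did not overlap between them. SAUR22 was faint in NL and in oastlB HL, so the size of each rise carries an unknown share of background. These 2 calls were fragile: leaving out 1 array removed that of SAUR20 in 10 of 16 fits and that of SAUR22 in 11, with the highest adjusted p, 0.119 and 0.0933, without oastlB HL replicate 4. AT3G17890, a locus without a symbol, was sturdier, with a difference of -1.46 ± 0.27 (adjusted p = 0.00278) that kept its call in the 23 planned settings that tested it. TUA2, a tubulin gene with levels of only 1.33 to 2.83, was at -1.23 ± 0.34 (adjusted p = 0.0428), and it lost its call in 13 of 16 fits without 1 array.

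Of 31 genes of abscisic acid and dehydration response, 6 were called higher in the difference of responses and 0 lower (background 1.16% and 1.64%), and 29 estimates lay above 0. Its median difference was 0.47, against 0.00 over all genes. The median response was 0.50 in oastlB and 0.06 in WT. In oastlB 16 members rose in HL and 0 fell, against backgrounds of 7.9% and 8.25% of all genes. In WT 6 rose and 4 fell, against 10.3% and 9.58%.

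RD29A (AT5G52310), a classic dehydration- and cold-responsive gene, read 9.81, 9.64, 10.02 and 10.15 in oastlB HL and 9.57, 9.70, 9.16 and 9.40 in oastlB NL. In WT it read 9.23, 9.32, 9.63 and 9.40 in HL, against 10.39, 10.19, 10.33 and 10.20 in NL. The transcript rose in oastlB (0.45 ± 0.14, adjusted p = 0.0205) and fell in WT (-0.88 ± 0.14, adjusted p = 9.73e-06), although 1 pair of oastlB values overlapped. The difference was 1.33 ± 0.19 (adjusted p = 0.000283). COR47 (AT1G20440), a dehydrin, read 9.99, 9.88, 10.22 and 10.76 in oastlB HL and 10.04, 9.98, 9.89 and 10.04 in oastlB NL. Its WT levels were 9.39, 9.54, 9.75 and 9.81 in HL, against 10.66, 10.57, 10.84 and 10.58 in NL. The groups overlapped in oastlB and were far apart in WT, and the difference was 1.27 ± 0.20 (adjusted p = 0.000586).

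RD20 (AT2G33380), a caleosin gene induced by abscisic acid and drought, rose in both genotypes. It read 8.42, 8.37, 8.43 and 8.47 in oastlB HL, against 5.30, 5.30, 4.48 and 5.58 in oastlB NL. WT levels were 7.56, 7.77, 7.75 and 7.77 in HL, against 6.30, 6.03, 5.23 and 6.56 in NL. Every oastlB HL array lay above every WT HL array, and the NL arrays of both genotypes overlapped. By limma, however, oastlB minus WT was not called at HL (0.71 ± 0.23, adjusted p = 0.128). It was called at NL (-0.86 ± 0.23, adjusted p = 0.026). The responses were 3.26 ± 0.23 in oastlB and 1.68 ± 0.23 in WT, with a difference of 1.57 ± 0.32 (adjusted p = 0.00526, and 0.0521 with only the 16 arrays). NCED3, which encodes a key enzyme of abscisic acid synthesis, was at 0.87 ± 0.23 (adjusted p = 0.0339). It lost its call in 11 of the 16 fits without 1 array, with an adjusted p of at most 0.0771. ERD10, a dehydrin (0.77 ± 0.16, adjusted p = 0.00522), and COR15B, a cold-regulated chloroplast protein (0.69 ± 0.18, adjusted p = 0.0293), completed the calls. With only the 16 arrays 2 members of the list were called, and 4 to 7 when 1 array was left out.

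Much of this contrast lay in NL. In oastlB minus WT at NL, 8 of the 31 genes were called lower, against a background of 1.28%, and 0 higher. They were RD20, RD29A, ABI1, NCED3, COR47, ERD10, COR6.6 and COR15B, at -0.39 to -0.86. At HL only COR47 was called, at 0.59 ± 0.14 (adjusted p = 0.0305), against a background of 0.449% higher. The list's median gap was 0.22 in HL and -0.26 in NL.

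Evening components of the circadian clock had mainly positive differences of responses. Of 15 genes on the list 4 were called higher and 0 lower (background 1.16% and 1.64%). They were ELF4, COR27, TOC1 and AT4G33980, and the list's median difference was 0.34. In oastlB 5 members fell in HL (background 8.25%) and 0 rose, while in WT 10 fell (9.58%) and 0 rose. These 4 genes kept their calls under every alternative setting.

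ELF4 (AT2G40080), a part of the evening complex, read 7.13, 6.78, 7.18 and 7.81 in oastlB HL and 6.94, 7.22, 7.22 and 6.92 in oastlB NL. WT arrays gave 6.90, 6.93, 6.92 and 6.64 in HL, against 7.99, 7.90, 8.24 and 8.22 in NL. The oastlB groups overlapped and those of WT were far apart. Its difference was 1.39 ± 0.22 (adjusted p = 0.00081). TOC1 (AT5G61380), the evening repressor at the core of the clock, read 8.69, 8.80, 8.75 and 8.88 in oastlB HL, against 9.11, 9.07, 9.15 and 9.0 in oastlB NL. WT levels were 8.79, 8.55, 8.79 and 8.56 in HL, against 9.65, 9.54, 9.66 and 9.74 in NL. It fell in both genotypes, by 0.30 in oastlB and 0.98 in WT, and the difference was 0.67 ± 0.11 (adjusted p = 0.000836). COR27, a cold-regulated gene that feeds back on the clock, differed by 1.24 ± 0.20 (adjusted p = 0.00081). AT4G33980 fell to 6.72 to 7.21 in oastlB HL, against 7.61 to 7.83 in oastlB NL, and to 6.17 to 6.69 in WT HL, against 8.43 to 8.64 in WT NL. Its difference was 1.21 ± 0.17 (adjusted p = 0.00026).

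Here too the genotypes differed in NL. In oastlB minus WT at NL, 6 of the 15 evening genes were called lower and 0 higher (background 1.28% and 2.15%). They included ELF4 (-1.01 ± 0.16), COR27 (-0.92 ± 0.14), AT4G33980 (-0.81 ± 0.12) and TOC1 (-0.56 ± 0.08). LUX (-0.44) and FKF1 (-0.45) were the others. At HL 0 of the 15 were called in either direction by limma. Since the hour of harvest of each group is not given, the part of sampling time in these NL gaps was not tested.

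Of 13 morning and day genes only RVE7 was called, and lower (background 1.64%). RVE7 (AT1G18330), a morning-phased MYB-like factor, read 5.58, 5.32, 5.96 and 5.27 in oastlB HL and 5.58, 6.01, 5.99 and 5.71 in oastlB NL. Levels in WT were 5.96, 6.02, 6.42 and 7.36 in HL, against 5.19, 5.26, 5.30 and 5.30 in NL. All WT HL arrays lay above all WT NL arrays, with 1 HL array well above the rest, and the oastlB groups overlapped. The difference was -1.47 ± 0.28 (adjusted p = 0.00305, and 0.0624 with only the 16 arrays). The core morning genes CCA1 (-0.11 ± 0.22, adjusted p = 0.876) and LHY (0.28 ± 0.21, adjusted p = 0.548) were not called. PRR9 stood at -0.95 ± 0.29 (adjusted p = 0.0619).

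DYL1 (AT1G28330), a dormancy-associated gene on the list of dark and sugar starvation genes, was the only one of its 18 members called (2.8% over all genes). It read 4.59, 4.74, 4.55 and 5.03 in oastlB HL, against 5.41, 5.46, 5.58 and 5.55 in oastlB NL. WT had 4.23, 4.47, 4.29 and 4.12 in HL, against 6.05, 5.93, 6.42 and 6.35 in NL. It fell in both genotypes, more in WT, and the difference was 1.14 ± 0.19 (adjusted p = 0.000836, kept under every alternative setting).

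**Figure D2:**
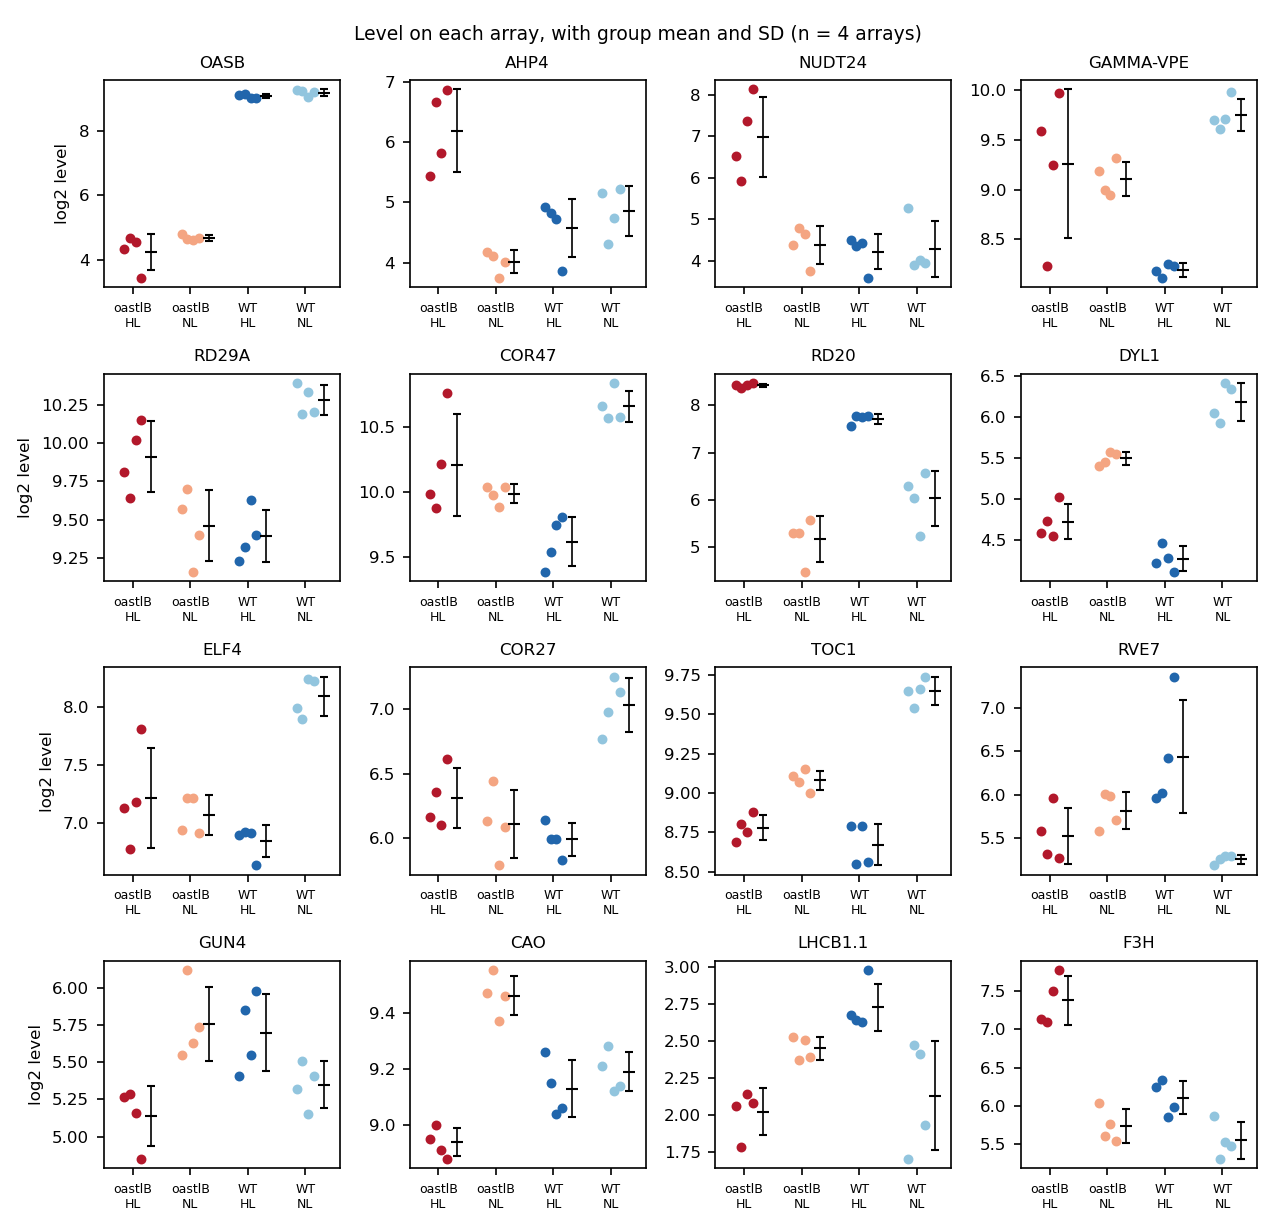
Level of 16 genes on each array (log2, points), with the mean and SD of each group of 4 arrays, for oastlB HL, oastlB NL, WT HL and WT NL. In ELF4, COR27, COR47 and RD29A the WT NL group is the high one, whereas in NUDT24 and AHP4 the oastlB HL group is.

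Of 15 chlorophyll synthesis genes, 5 were called lower in the difference of responses and 0 higher (background 1.64% and 1.16%). Estimates lay below 0 for 14, and the median was -0.29. The median response was -0.35 in oastlB and -0.09 in WT, with 11 members falling in oastlB (background 8.25%) and 6 in WT (9.58%). The calls were GUN4, which activates magnesium chelatase (-0.97 ± 0.20, adjusted p = 0.00482), HEMA1, glutamyl-tRNA reductase at the entry of the pathway (-0.63 ± 0.14, adjusted p = 0.0121), CAO, which makes chlorophyll b (-0.47 ± 0.10, adjusted p = 0.00728), PORB, a protochlorophyllide oxidoreductase (-0.40 ± 0.10, adjusted p = 0.0201), and CHLG, chlorophyll synthase (-0.32 ± 0.09, adjusted p = 0.0428).

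CAO read 8.95, 9.0, 8.91 and 8.88 in oastlB HL, against 9.47, 9.55, 9.37 and 9.46 in oastlB NL. WT plants had 9.26, 9.15, 9.04 and 9.06 in HL and 9.21, 9.28, 9.12 and 9.14 in NL. The oastlB groups lay clearly apart and those of WT overlapped. HEMA1 stood at 9.31, 9.24, 8.96 and 9.03 in oastlB HL and 9.41, 9.59, 9.26 and 9.37 in oastlB NL. Its WT arrays had 9.42, 9.41, 9.28 and 9.41 in HL, against 9.05, 8.97, 8.95 and 9.13 in NL. It rose in WT (adjusted p = 0.0103), and its oastlB response of -0.27 ± 0.10 was not called. In oastlB minus WT at HL, GUN4 and PORB were called lower (background 0.406%), and at NL HEMA1 and CAO were called higher (2.15%). With only the 16 arrays 0 of the 15 genes were called, with GUN4 at an adjusted p of 0.0555, HEMA1 at 0.0548, CAO at 0.0741 and PORB at 0.119. Leaving out 1 array gave 3 to 6 calls, the fewest without oastlB HL replicate 4. PORB lost its call without oastlB HL replicate 4 (0.0562) or WT HL replicate 4 (0.0543).

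Among 22 light-harvesting proteins, 2 were called lower and 0 higher (background 1.64% and 1.16%), with a list median of -0.13. LHCB1.1 (-1.04 ± 0.20, adjusted p = 0.00329) kept its call in the 23 planned settings that could test it, which leave out the one restricted to brighter genes, with levels of 1.70 to 2.98 on the 16 arrays. At such faint levels signal over background is unknown, so the call says little about the LHCB1.1 transcript. LHCB1.2 was at -0.42 ± 0.12 (adjusted p = 0.0428), a call lost in 12 of the 16 fits without 1 array. Carotenoid synthesis (14 genes, median 0.09) and the Calvin-Benson cycle (18 genes, median -0.00) held 0 calls in limma. Chlorophyll and light-harvesting genes were thus the photosynthesis lists with calls, the latter only through the faint LHCB1.1 and the easily lost LHCB1.2.

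**Figure D3:**
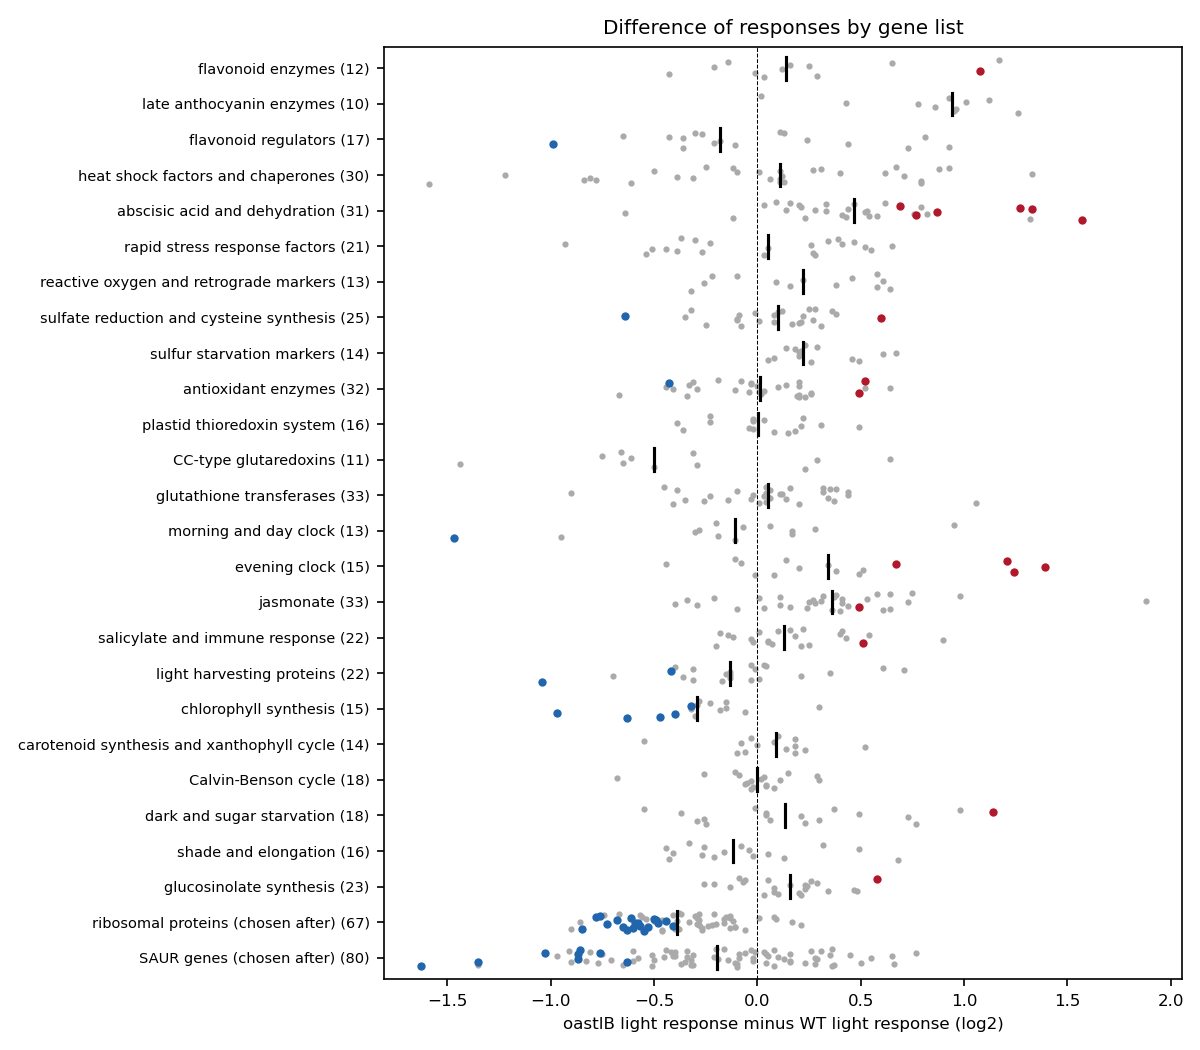
Difference of responses (oastlB minus WT, log2) for each member of 24 gene lists and of 2 gene families chosen after values were seen, with called genes in red (higher) or blue (lower), uncalled genes in grey and the list median as a black bar. The abscisic acid list holds 6 red points and the evening clock list 4, the chlorophyll list 5 blue points and the ribosomal family 19, and the 10 late anthocyanin genes lie above 0 without a call.

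The enzymes of late anthocyanin synthesis, which make the red pigments of stressed leaves, gave no difference of responses that passed the test. All 10 genes rose in oastlB (background 7.9%), and 2, GSTF12 and SCPL10, rose in WT (10.3%). The median response was 1.3 in oastlB and 0.34 in WT. All 10 differences of responses lay above 0, with a median of 0.94 and a median SE of 0.37, and adjusted p was 0.108 to 0.982. The list held 0 calls in every alternative fit, and its median lay between 0.77 and 1.05.

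DFR (AT5G42800), dihydroflavonol reductase, read 9.02, 8.93, 9.47 and 9.73 in oastlB HL, against 8.08, 7.22, 8.05 and 7.34 in oastlB NL. The WT arrays stood at 7.58, 7.74, 7.65 and 7.72 in HL and 7.82, 6.87, 7.08 and 7.49 in NL. The oastlB HL arrays were above all others, and the NL arrays of both genotypes were widely spread and overlapped. Its difference was 1.26 ± 0.52 (adjusted p = 0.207). GSTF12 (AT5G17220), a glutathione transferase needed for anthocyanin transport to the vacuole, read 7.09, 6.85, 7.20 and 7.65 in oastlB HL, against 5.25, 5.02, 5.46 and 5.34 in oastlB NL. WT levels were 5.67, 5.85, 6.03 and 5.97 in HL, against 5.22, 4.49, 4.75 and 5.09 in NL, and the difference was 0.93 ± 0.38 (adjusted p = 0.2). SCPL10 rose alike by estimate, by 1.27 ± 0.16 in oastlB and 1.25 ± 0.16 in WT.

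Compared at HL alone, 4 of the 10 late genes were called higher in oastlB than in WT, against a background of 0.449%. They were DFR (1.62 ± 0.37, adjusted p = 0.027), GSTF12 (1.32 ± 0.27, adjusted p = 0.0114), AT5MAT, an anthocyanin malonyltransferase (1.15 ± 0.22, adjusted p = 0.00692), and AT1G03940 (1.4 ± 0.27, adjusted p = 0.0081). At NL 0 of the 10 were called by limma, with a median gap of 0.35. Over all genes 238 (0.855%) were called at HL and 953 (3.42%) at NL. The HL count was 59 with only the 16 arrays and 69 without oastlB HL replicate 4, and the NL count was 332 and, without oastlB NL replicate 3, 420.

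Of 12 further enzymes, on a list of flavonoid synthesis, only F3H, flavanone 3-hydroxylase, was called (2.8% over all genes). F3H (AT3G51240) read 7.14, 7.10, 7.50 and 7.77 in oastlB HL, against 6.04, 5.61, 5.77 and 5.54 in oastlB NL. For WT the levels were 6.25, 6.34, 5.86 and 5.99 in HL and 5.87, 5.31, 5.53 and 5.48 in NL. Its oastlB HL arrays lay above all others, and the WT groups overlapped slightly. The difference was 1.08 ± 0.29 (adjusted p = 0.0374). The call was lost in 10 of the 16 fits without 1 array, with at most 0.0982, without oastlB HL replicate 4. CHS, the entry enzyme, was at 0.12 (adjusted p = 0.874), with a response of 1.04 in oastlB and 0.93 in WT.

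Among 17 regulators, PAP1, the MYB activator of anthocyanin genes, was at 0.73 ± 0.29 (adjusted p = 0.182), with responses of 1.89 ± 0.21 in oastlB and 1.17 ± 0.21 in WT. LBD39, a nitrogen-induced repressor of anthocyanin genes, was the only one called (2.8% over all genes), at -0.99 ± 0.24 (adjusted p = 0.0224). LBD39 rose in WT (1.32 ± 0.17), with 0.33 ± 0.17 in oastlB (adjusted p = 0.221). It lost its call without oastlB HL replicate 3 (0.0533) or 4 (0.0651), oastlB NL replicate 2 (0.0511) or WT NL replicate 4 (0.0589), and with only the 16 arrays (0.124).

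**Figure D4:**
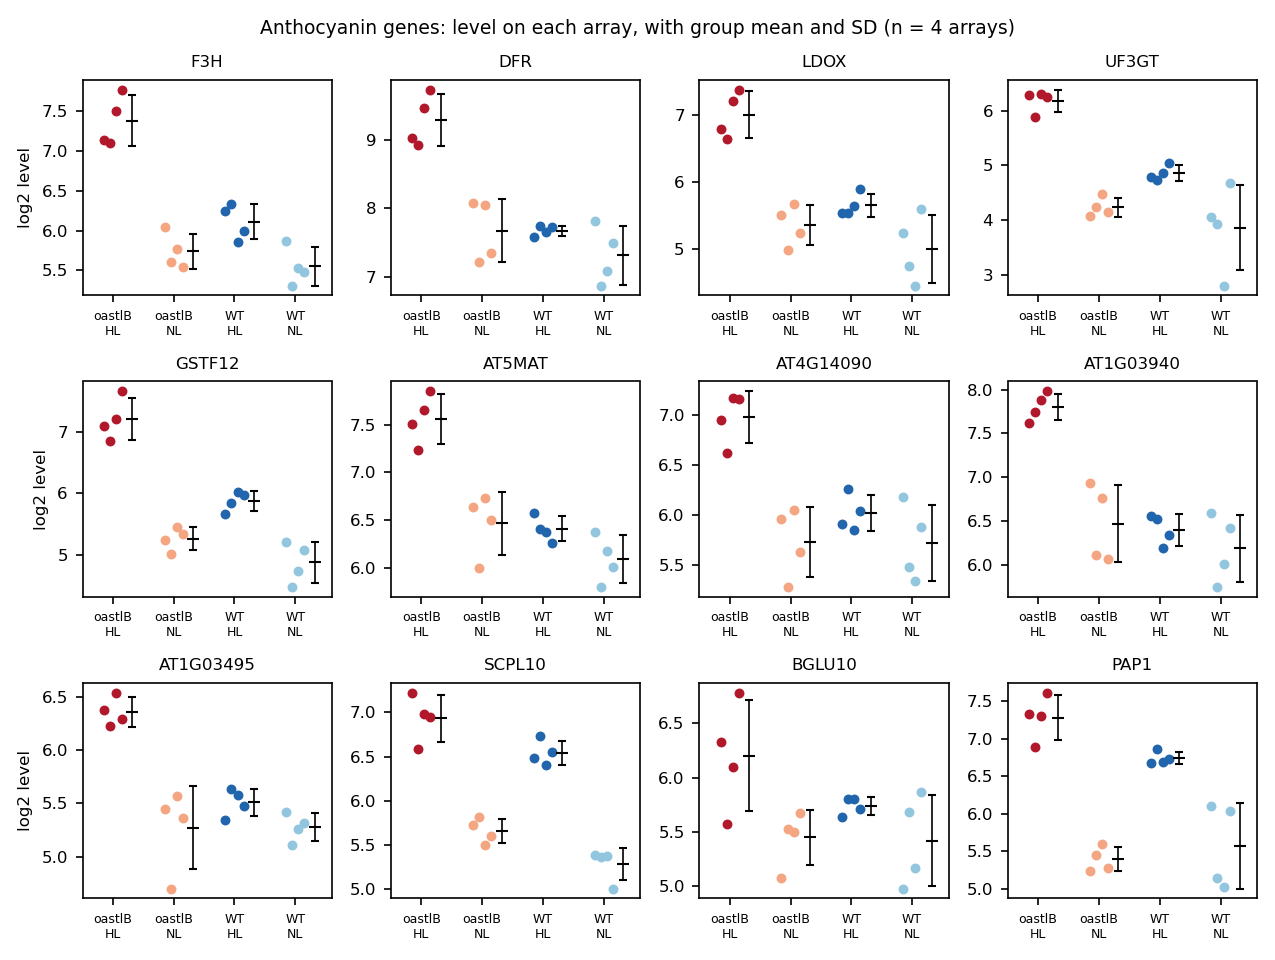
Level of F3H, the 10 late anthocyanin genes and PAP1 on each array (log2, points), with the mean and SD of each group of 4 arrays, for oastlB HL, oastlB NL, WT HL and WT NL. The oastlB HL group is the highest in DFR, GSTF12, AT5MAT and AT1G03940, and the NL groups of both genotypes overlap in DFR.

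Genes of the pathway to which OASB itself belongs were looked at as a list. Of 25 genes of sulfate reduction and cysteine synthesis, 1 was called higher and 1 lower (background 1.16% and 1.64%). The median difference was 0.10. APR1, one of the adenosine phosphosulfate reductases that control sulfate reduction, read 9.59, 9.46, 9.47 and 9.37 in oastlB HL, against 9.31, 9.07, 9.04 and 9.13 in oastlB NL. The WT values were 9.43, 9.51, 9.27 and 8.95 in HL and 9.80, 9.50, 9.35 and 9.57 in NL. The oastlB groups did not overlap and the WT groups did, with a difference of 0.60 ± 0.17 (adjusted p = 0.0462). This call was lost in 13 of the 16 fits without 1 array, and its adjusted p reached 0.129 without WT HL replicate 4.

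CS26 (AT3G03630) encodes S-sulfocysteine synthase, the other plastid member of the OAS-TL family. It read 6.70, 6.55, 6.35 and 6.34 in oastlB HL, against 7.02, 7.35, 7.32 and 7.08 in oastlB NL. WT levels were 6.59, 6.65, 6.24 and 6.57 in HL and 6.58, 6.71, 6.53 and 6.49 in NL. The oastlB NL arrays stood above all the others. It fell in oastlB (-0.71 ± 0.11, adjusted p = 6.65e-06), with -0.07 ± 0.11 in WT (adjusted p = 0.733). The difference was -0.64 ± 0.15 (adjusted p = 0.0167, and 0.0856 with only the 16 arrays), and oastlB exceeded WT in NL by 0.61 ± 0.11 (adjusted p = 0.000913).

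The other OAS-TL genes were not called: the cytosolic OASA1 was at 0.01 ± 0.11 (adjusted p = 0.977) and the mitochondrial OASC at -0.35 ± 0.21 (adjusted p = 0.424). APR2 rose in both genotypes, by 0.98 ± 0.11 in oastlB and 1.24 ± 0.11 in WT, and so did APR3, by 0.80 ± 0.12 in oastlB and 0.42 ± 0.12 in WT. Their differences were -0.25 ± 0.16 (adjusted p = 0.467) and 0.38 ± 0.17 (adjusted p = 0.262). The ATP sulfurylases APS1 and APS4 rose in oastlB, by 0.27 ± 0.08 and 0.30 ± 0.10, with differences of 0.31 ± 0.12 (adjusted p = 0.156) and 0.36 ± 0.14 (adjusted p = 0.168). SERAT2;1, the plastid serine acetyltransferase, was at 0.10 ± 0.20 (adjusted p = 0.874). All 14 sulfur starvation markers had estimates above 0, with a median of 0.22, and 0 were called by limma.

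Peroxide metabolism gave 3 calls among 32 antioxidant genes, 2 higher and 1 lower (background 1.16% and 1.64%), with a list median of 0.01. GPX6, a glutathione peroxidase-like enzyme, read 10.03, 9.88, 10.01 and 10.16 in oastlB HL, against 9.45, 9.46, 9.30 and 9.43 in oastlB NL. WT arrays gave 9.82, 9.82, 9.92 and 9.77 in HL and 9.54, 9.72, 9.73 and 9.97 in NL. The groups lay apart in oastlB and overlapped in WT, with a difference of 0.52 ± 0.11 (adjusted p = 0.00908, and 0.0913 with only the 16 arrays). CAT3, a catalase, was at 0.49 ± 0.12 (adjusted p = 0.025), a call lost without WT HL replicate 2 (0.0606) or 4 (0.0564) or WT NL replicate 1 (0.0731). SAPX, the stromal ascorbate peroxidase, was at -0.43 ± 0.12 (adjusted p = 0.0359), lost in 9 of 16 fits without 1 array. CAT2, the main leaf catalase, rose by 1.13 ± 0.13 in each genotype, with a difference of -0.00 ± 0.18. The plastid thioredoxin system (16 genes, median 0.01), CC-type glutaredoxins (11 genes, median -0.50) and glutathione transferases (33 genes, median 0.05) had 0 calls.

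Of 30 heat shock factors and chaperones, 15 rose in oastlB (background 7.9%) and 17 in WT (10.3%), and 0 differences of responses were called by limma. HSFA2, the heat- and high-light-induced factor, read 4.92, 5.49, 4.73 and 4.01 in oastlB HL, against 2.88, 2.71, 2.52 and 2.65 in oastlB NL. WT levels were 6.18, 4.3, 7.25 and 8.16 in HL, against 2.91, 2.87, 2.33 and 3.03 in NL. The WT HL arrays spread widely and overlapped with those of oastlB HL. The difference of -1.59 ± 0.61 did not pass (adjusted p = 0.162).

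The plastid sugar phosphate translocator GPT2, a strongly light-acclimating gene, rose by 3.45 ± 0.26 in oastlB and 3.72 ± 0.26 in WT (difference -0.26 ± 0.37, adjusted p = 0.799). Jasmonate genes had 1 call in 33, JAZ12, a repressor of the pathway (0.49 ± 0.11, adjusted p = 0.0141, and 0.0614 with only the 16 arrays), with a list median of 0.36. Salicylate and immune genes had 1 call in 22, NPR4, a salicylate receptor (0.51 ± 0.14, adjusted p = 0.0364), and glucosinolate synthesis 1 in 23, BCAT4, an aminotransferase of methionine-derived glucosinolates (0.58 ± 0.16, adjusted p = 0.0477). The called shares of the jasmonate, salicylate and glucosinolate lists, 3.03%, 4.55% and 4.35%, were near the 2.8% over all genes. NPR4 lost its call in 9 and BCAT4 in 13 of the 16 fits without 1 array. Rapid stress response factors, reactive oxygen and retrograde markers, and shade and elongation genes had 0 calls by limma, with medians of 0.05, 0.22 and -0.12.

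The oastlB response was also set against those of the other mutants, without WT arrays. Set against serat2;1 it differed for 107 genes (0.385%), against cyp20-3 for 637 (2.29%) and against 2cysprx for 368 (1.32%). These comparisons share the oastlB arrays with each other and with the one against WT. Without oastlB HL replicate 4 the first count was 48. The libraries labelled serat2;1 did not show a lower SERAT2;1 transcript: it read 6.92, 6.58, 6.82 and 6.93 in serat2;1 HL and 6.34, 6.50, 6.12 and 6.57 in serat2;1 NL, against 6.33, 6.3, 6.28 and 6.46 in WT HL and 6.54, 6.53, 6.06 and 6.31 in WT NL. Where the probes lie relative to the mutation is not known here, so this does not check the label.

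For the evening clock genes no call separated oastlB from serat2;1 or 2cysprx. ELF4 responded by 0.15 ± 0.16 in oastlB, -0.39 ± 0.16 in cyp20-3, -0.31 ± 0.16 in 2cysprx, 0.12 ± 0.16 in serat2;1 and -1.24 ± 0.16 in WT. The oastlB response differed from these mutants by 0.54 ± 0.22 (adjusted p = 0.245), 0.46 ± 0.22 (0.415) and 0.03 ± 0.22 (0.988). COR27 likewise was not called against cyp20-3 (0.45 ± 0.20), 2cysprx (0.15 ± 0.20) or serat2;1 (-0.24 ± 0.20), with adjusted p of 0.283 to 0.844. Against cyp20-3 TOC1 was called higher (0.42 ± 0.11, adjusted p = 0.0324), and CHE, a repressor of CCA1, was called lower (-0.93 ± 0.19, adjusted p = 0.0046). WT had the most negative response of all 5 lines in ELF4, COR27 and TOC1. RVE7 rose by 1.18 ± 0.20 in WT, while its response was -0.32 to 0.24 in the 4 mutants, none of them called by limma. All of these genes were called in the difference from WT, which uses the same WT arrays. Their choice thus favours an extreme WT response, and the place of WT among the lines is not independent evidence.

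In the dehydration genes RD29A and RD20 WT again had the lowest response of all lines, but the mutants were ordered in another way. Both genes were called in the difference from WT, which again favours a low WT response. RD29A responded by 0.45 ± 0.14 in oastlB, -0.73 ± 0.14 in cyp20-3, 0.59 ± 0.14 in 2cysprx and -0.04 ± 0.14 in serat2;1, against -0.88 ± 0.14 in WT. The difference of oastlB from cyp20-3 was 1.18 ± 0.19 (adjusted p = 0.000291). RD20 responded by 3.26 ± 0.23 in oastlB, 1.80 ± 0.23 in cyp20-3, 2.86 ± 0.23 in 2cysprx, 1.83 ± 0.23 in serat2;1 and 1.68 ± 0.23 in WT. The oastlB response exceeded that of cyp20-3 (adjusted p = 0.00861) and serat2;1 (0.0367), while the 0.39 ± 0.32 against 2cysprx was not called (0.71). Over the list of 31, 9 members were called higher against cyp20-3 (background 0.963%), 0 against 2cysprx and 1 against serat2;1 (0.248%).

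Anthocyanin genes set oastlB apart from 2cysprx in many members. Of the 10 late genes, 7 had a higher response in oastlB than in 2cysprx (background 0.546%), 1, AT5MAT, than in serat2;1 (0.248%), and 0 than in cyp20-3 (0.963%). Of the 12 enzymes on the flavonoid list the counts were 7, 4 and 0. The late genes' median response was 1.3 in oastlB, 0.66 in cyp20-3, -0.20 in 2cysprx, 0.10 in serat2;1 and 0.34 in WT. F3H exceeded 2cysprx by 1.93 ± 0.29 (adjusted p = 0.00016) and serat2;1 by 1.5 ± 0.29 (0.015), while its 1.01 ± 0.29 against cyp20-3 was not called (0.0602). PAP1, uncalled against WT, was called against 2cysprx (1.76 ± 0.29, adjusted p = 0.000479) and serat2;1 (1.37 ± 0.29, 0.0225), with 0.61 ± 0.29 against cyp20-3 (0.333). GPT2 responded by 3.45 ± 0.26 in oastlB and 0.34 ± 0.26 in 2cysprx, a difference of 3.11 ± 0.37 (adjusted p = 1.27e-05).

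Of the chlorophyll synthesis genes, 3 had a lower response in oastlB than in 2cysprx (background 0.776%), and 0 than in cyp20-3 (1.33%) or serat2;1 (0.137%), by limma. PORB was at -0.47 ± 0.10 (adjusted p = 0.00647) and CAO at -0.50 ± 0.10 (adjusted p = 0.00505) against 2cysprx.

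Of the leading genes, AHP4 responded by 2.18 ± 0.28 in oastlB, 1.37 ± 0.28 in cyp20-3, 0.62 ± 0.28 in 2cysprx and 1.24 ± 0.28 in serat2;1, against -0.28 ± 0.28 in WT. Only the difference from 2cysprx, 1.56 ± 0.40 (adjusted p = 0.0372), was called among the mutants. NUDT24 responded by 2.60 ± 0.38 in oastlB and by 0.90 ± 0.38, 0.67 ± 0.38 and 0.59 ± 0.38 in cyp20-3, 2cysprx and serat2;1, and none of its differences from them was called (adjusted p of 0.0658 to 0.0946).

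**Figure D5:**
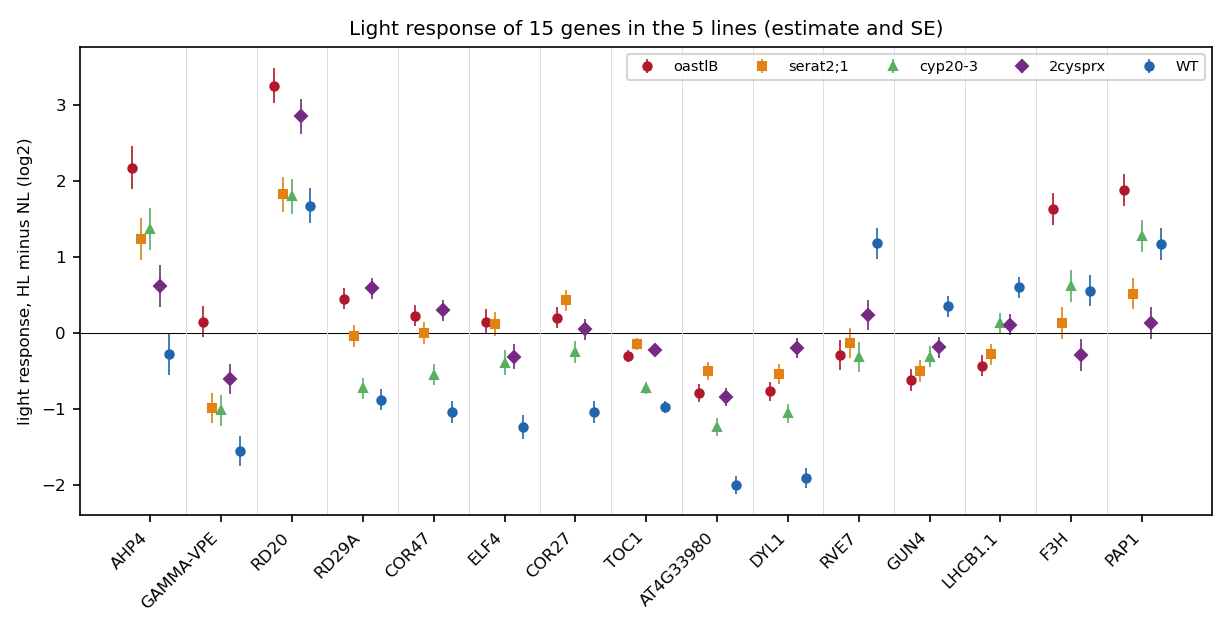
Light response (HL minus NL, log2, estimate and SE from the fit of all 40 arrays) of 15 genes in oastlB, serat2;1, cyp20-3, 2cysprx and WT. WT is the lowest of the 5 lines for ELF4, COR27, TOC1, AT4G33980 and DYL1, while oastlB is the highest for AHP4, RD20, F3H and PAP1. The genes with the lowest response in WT were called in the difference from WT, which favours that place.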

How the data were processed

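Per the submitters' processing notes, the authors made the deposited log2 values with RMA, which corrects background, quantile-normalizes and summarizes probe intensities. Those notes name no version of RMA. The table held 40 arrays and 27826 probe sets, each named by a locus code, with 0 control probe sets. Symbols came from a RefSeq gene table of assembly TAIR10.1, where 27241 of the loci were found. For 585 the locus code stands alone. Sequences and positions were not used here, and the promoter motif search that had been intended was not run.

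One limma model (3.58.1, R 4.3.3) with a mean per group was fitted to all 40 arrays (residual degrees of freedom 30, prior 3.9), without a filter. P-values are two-sided and adjusted over all probe sets by Benjamini-Hochberg, and the script was tested on simulated data. The values hold no detection calls, so the number of arrays sets the precision, and p-values measure the spread between the labelled biological replicates. Deviations of same-numbered arrays of the 4 groups were at most weakly correlated (r of -0.129 to 0.122 over 24 pairs, median 0.012). However, 9 of 16 arrays correlated best with their own number, out of 4. The main fit did not treat the numbers as pairs, and a shared effect of a number is not excluded.

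The 24 lists (474 genes) and 4 marker lists were chosen with earlier results of these data known, as was the comparison. Genes were named if among the 15 highest or lowest called differences, if called in a list (the 4 largest), if on the sulfate list, or if PAP1, HSFA2, RD20, RD29A, GPT2, CAT2 or RVE7. A selection of these is printed. Other genes with values, among them ERD10, COR15B, CHLG, CHS, CCA1, LHY, PRR9, LUX, FKF1, CHE and the late anthocyanin genes, were picked after values were seen. The alternatives are given in the closing section.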

Additional observations from a re-analysis of the deposited data

Results flagged for a closer look

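The difference of light responses itself was called for 779 genes between oastlB and WT, and for 107, 637 and 368 genes between oastlB and serat2;1, cyp20-3 and 2cysprx, each by limma's test of the difference of responses.

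For 67 genes the 4 arrays of each of the 4 groups were searched for 1 array far from the other 3 (Dixon's test), and 20 of 268 groups had one, where chance gives about 1 in 20. WT HL replicate 4 held 5 of these. It was low for NUDT24 (3.58, the others 4.35 to 4.49), ELF4 (6.64, the others 6.90 to 6.93), LBD39 (7.39, the others 7.63 to 7.67) and APS1 (9.57, the others 9.85 to 9.89), and high for LHCB1.1 (2.98, the others 2.63 to 2.68). NUDT24 was also high on WT NL replicate 1 (5.28, the others 3.90 to 4.02). In oastlB NL replicate 3, the dehydrins ERD10 (10.13, the others 10.34 to 10.37) and LTI30 (3.36, the others 4.59 to 4.79) were low.

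In the remaining WT HL arrays, RD20 was low on replicate 1 (7.56, the others 7.75 to 7.77), HEMA1 on replicate 3 (9.28) and SAPX on replicate 2 (8.39). In WT NL, SCPL10 (5.01) and JAZ12 (8.11) were low on replicate 4, OASC on replicate 1 (5.47), and PRR9 was high on replicate 2 (4.64, the others 3.93 to 4.05). In oastlB HL, UF3GT (5.88) and AT3G17890 (2.34) were low on replicate 2, CCA1 on replicate 3 (5.13) and SAUR22 on replicate 4 (1.74), and OASA1 was high on replicate 1 (8.46, the others 8.13 to 8.18).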

How the results depend on the processing

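The 779 calls (324 higher, 455 lower) were 140 (68 and 72) with only the 16 arrays, 1342 (572 and 770) among genes at or above the median level, and 258 (109 and 149) without WT NL replicate 1 and oastlB HL replicate 4, a setting chosen after seeing the data. Of these, 132, 694 and 245 were among the 779. An intensity trend gave 1092 calls, a robust prior 771, quantile normalization 779, cyclic loess 756 and array weights 780. The replicate block gave 873, of which 748 were shared. It ended 3 named calls, those of TUA2 (adjusted p = 0.051), AT3G50280 (0.0502) and AT1G06830 (0.0524). Whether the replicate numbers pair samples was not settled, as 9 of 16 arrays correlated best with their own number, out of 4. Leaving out 1 array gave 414 to 958 calls (173 to 380 higher, 235 to 578 lower). For oastlB minus WT at HL the count of 238 became 367 with the trend, 59 with the 16 arrays, 82 without both arrays and 69 to 320 without 1 array. At NL 953 became 332 with the 16 arrays, 1579 among the brighter genes and 420 to 1040 without 1 array, the lowest without oastlB NL replicate 3. Against serat2;1 the 107 calls became 185 with the trend, 228 among the brighter genes and 48 to 98 without 1 array. Against 2cysprx 368 became 562, 636 and 247 to 492, and against cyp20-3 637 became 478 to 619 without 1 array. No array of serat2;1, cyp20-3 or 2cysprx was left out in these comparisons. In the alternative fits of oastlB against WT, none of the 779 calls turned its sign. Of 54 named calls, 13 were kept in all planned settings that tested them (AT2G24870, AT3G57680, AT3G17890 and LHCB1.1 were not among the brighter genes), 16 with the 16 arrays, 29 whenever 1 array was left out and 24 without both arrays. Fewer arrays leave fewer degrees of freedom. Any other cause of these moves was not tested. Signal over background is unknown, so faint genes such as LHCB1.1, SAUR22 and TUA2 carry an unknown share of background.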

Other observations

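Ribosomal protein genes had many negative differences of responses. This family was picked after its values were seen, from names in the reference table, and gets no test of its own. It mixes cytosolic and plastid ribosomal proteins, which were not counted apart. Of 67 genes 19 were called lower and 0 higher (background 1.64% and 1.16%), 62 estimates lay below 0, and the median difference was -0.39. In HL 2 rose and 10 fell in oastlB (background 7.9% and 8.25%), whereas in WT 39 rose and 0 fell (10.3% and 9.58%). In oastlB minus WT at NL 20 were called higher (background 2.15%), and at HL 1 was called lower (0.406%). The median response was 0.37 in WT, above those of the mutants. The medians were -0.05 in oastlB, -0.03 in 2cysprx, 0.10 in serat2;1 and 0.16 in cyp20-3. Picking the family after its values were seen favours such an order, and WT was not tested against the other mutants. Set against serat2;1, cyp20-3 and 2cysprx, the oastlB response was called lower for 1, 1 and 2 members (background 0.137%, 1.33% and 0.776%). RPS28, of the small cytosolic subunit, read 7.16, 7.12, 7.16 and 6.93 in oastlB HL and 7.05, 7.10, 7.12 and 7.24 in oastlB NL, against 7.52, 7.52, 7.39 and 7.59 in WT HL and 6.68, 6.70, 6.97 and 6.68 in WT NL. The oastlB groups overlapped, between a high WT HL and a low WT NL group, and the difference was -0.78 ± 0.13 (adjusted p = 0.000836). RPS5B (-0.76 ± 0.16, adjusted p = 0.00668) and the plastid PSRP4 (-0.48 ± 0.12, adjusted p = 0.0293) were also called. With only the 16 arrays 2 were called, without WT NL replicate 1 there were 5, and without both that array and oastlB HL replicate 4 there were 2. The 7 markers of dividing cells all had differences below 0 (median -0.26, 0 called by limma), with array means of 4.87 to 5.03 in oastlB HL, 5.20 to 5.31 in oastlB NL, 4.88 to 5.37 in WT HL and 4.79 to 5.36 in WT NL, and their part in this result was not tested.

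Of 80 SAUR genes, a family of auxin-induced growth genes chosen in the same way, 8 were called lower and 0 higher (background 1.64% and 1.16%). In oastlB 10 rose in HL (background 7.9%) and in WT 27 (10.3%). The median response was 0.07 in oastlB, 0.11 in serat2;1, 0.14 in cyp20-3, 0.16 in 2cysprx and 0.26 in WT. Set against serat2;1, cyp20-3 and 2cysprx, 0, 1 and 1 members were called lower (background 0.137%, 1.33% and 0.776%). Against cyp20-3, 1 member was called higher (0.963%). SAUR29 read 6.11, 5.60, 6.07 and 6.03 in oastlB HL and 6.28, 6.53, 6.09 and 6.62 in oastlB NL, against 6.29, 6.13, 6.33 and 6.17 in WT HL and 5.85, 5.73, 5.38 and 5.56 in WT NL. It fell in oastlB and rose in WT (difference -1.03 ± 0.20, adjusted p = 0.00406). With only the 16 arrays 3 of the family were called, and also 3 without oastlB NL replicate 4.

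Of 30 BBX genes, B-box zinc-finger factors that often act in light signalling, 3 were called higher and 1 lower (background 1.16% and 1.64%). COL9 (BBX7) read 6.43, 6.47, 6.53 and 6.23 in oastlB HL, against 6.96, 6.88, 6.79 and 6.98 in oastlB NL. WT had 6.43, 6.19, 6.43 and 6.17 in HL, against 7.52, 7.59, 8.11 and 7.83 in NL. It fell in both genotypes, more in WT (difference 0.97 ± 0.18, adjusted p = 0.00319), and BBX13 likewise differed by 0.80 ± 0.13 (adjusted p = 0.000836). BBX30, a microprotein at faint levels of 1.3 to 3.85, was the one called lower, at -1.11 ± 0.27 (adjusted p = 0.0198).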
